A study of Homo sapiens with 2 samples.

Results

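The genes of oxidative phosphorylation were described in single cells of 3 mixed human ovarian cancer lines, whose cDNA was read in long reads by nanopore sequencing. A gene was a member if its single listed symbol began with NDUF (then A, B, C, S or V and a digit), UQCR, COX4 to COX8, ATP5 or MT-, and was not a numbered pseudogene name. This gave 110 members of the 57110 gene entries, or of the 56388 entries with a single symbol. They comprised 37 mitochondrial genes, 68 nuclear subunit genes, 3 antisense RNAs, 1 pseudogene (ATP5J2LP) and ATP5S, now called DMAC2L, which was first described as coupling factor B of ATP synthase. Among the 68 subunits, 29 belong to complex I, 8 to complex III, 17 to complex IV (NDUFA4 and NDUFA4L2 counted there) and 14 to complex V. A count above 0 was found for 84 members. The members at 0 were all 22 mitochondrial tRNA genes, COX4I2, COX6A2, COX8C and ATP5J2LP.

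The lines, named IGROV1, COV504 and SK-OV-3 in the labels, are established, were untreated as far as the labels say, and were pooled in equal parts to be sequenced as 1 PromethION library. An Illumina library of the same pool gave the same list of 2462 barcodes, and its expression was not used here. Barcodes were put into lines by 10 marker genes that are no members: at least 1000 counts, and at least 75% of the marker counts from 1 set. Levels are given as CPM, estimated counts per 1000000 counts of the line. The 3 groups are named by their leading genes, ERBB2-high (648 barcodes, median 4953 counts), RARRES2-high (473, median 6262) and FOLR1-high (765, median 5289). The 576 remaining barcodes, 333 of them under 1000 counts, were in no line. Of the SK-OV-3 genes kept aside as a check, MIEN1 (528, 143 and 103 CPM in this order of lines) and STARD3 (214, 22.2 and 13.3) were highest in ERBB2-high cells. So were PGAP3 (22.9, 2.37 and 1.77) and GRB7 (56.4, 2.66 and 28.8). All are chromosomal neighbours of ERBB2, a marker that defined this group, so they are no independent check. CDKN2A, known to be lost in SK-OV-3, had 1 count, but also 0 in RARRES2-high cells. The IGROV1 checks did not point to 1 line, because PAX8 was highest in FOLR1-high cells (143 CPM) and CDH1 (45 CPM) and ESRP1 (8.88 CPM) in RARRES2-high cells. Each line was measured in 1 library, so there is no replicate and no test. Every interval is an exact 95% interval that covers counting error only. Limits for a count of 0, with the folds written as at least, set 3 in its place. They leave out the counting error of the higher line and are not exact 95% bounds.

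Oxidative phosphorylation makes ATP in the inner mitochondrial membrane. Complexes I, III and IV pass electrons to oxygen and pump protons, and complex V, the ATP synthase, uses the returning protons to make ATP. The mitochondrial genome encodes some core subunits of these complexes, and the nucleus encodes all other subunits, which are made in the cytosol and imported, so that both genomes supply the same enzymes.

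Sequences are shown first for 3 of the genes described below, UQCRH, which was nearly without counts in 1 line, and ATP5C1 and NDUFV3, in which 1 exon was used unequally. COX7B2, ATP5S and NDUFS5, which also differed widely, follow later without a sequence. The UQCRH promoter is given because the neighbouring gene LRRC41 starts 0.023 kb away on the other strand and had its lowest level in the same line. It is the RefSeq window from 250 bases before to 50 bases after the start, chr1:46303448-46303747 on the plus strand of GRCh38.p14, and its capitals mark the single match to the ETS family letters CCGGAAG, found on the reverse strand.

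UQCRH promoter: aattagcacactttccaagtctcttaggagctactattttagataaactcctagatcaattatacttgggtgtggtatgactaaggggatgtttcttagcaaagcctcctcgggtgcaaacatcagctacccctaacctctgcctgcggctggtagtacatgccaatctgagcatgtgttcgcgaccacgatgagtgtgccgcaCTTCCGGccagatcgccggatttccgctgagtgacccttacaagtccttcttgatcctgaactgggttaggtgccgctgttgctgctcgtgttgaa

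Those letters were present on either strand in 10.7% of 27305 RefSeq promoters of the same length, and a match describes the sequence and shows no binding. A comparison of the nuclear members with all promoters was void, since only 53 of 68 had an entry. ATP5C1, now called ATP5F1C, encodes the gamma subunit, the rotating stalk of ATP synthase. One of its transcripts carries a 37-base exon (exon 9, chr10:7806974-7807010, plus strand, GRCh38) and the other joins the exons on either side. NDUFV3 encodes a small subunit of the complex I arm that takes electrons from NADH, and 1 of its transcripts carries a 1095-base coding exon (exon 3, chr21:42903182-42904276, plus strand) that the other lacks. In the lines below the lower-case bases end the shared exon before the junction. The capitals are the bases that follow it, up to the stop codon in ATP5C1 and the first 30 in NDUFV3.

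ATP5C1 with exon 9: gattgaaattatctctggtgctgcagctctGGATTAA
ATP5C1 without exon 9: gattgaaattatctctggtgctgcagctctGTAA
NDUFV3 with exon 3: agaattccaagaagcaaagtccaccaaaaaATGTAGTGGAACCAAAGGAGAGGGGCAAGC
NDUFV3 without exon 3: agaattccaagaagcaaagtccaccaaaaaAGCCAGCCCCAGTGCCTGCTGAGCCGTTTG

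Both ATP5C1 forms end within a few bases of the junction, and their annotated coding lengths are 894 and 891 bases. The form without exon 9 is known as the one of heart and skeletal muscle. The 2 NDUFV3 forms differ far more, with coding lengths of 1419 and 324 bases.

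Mitochondrial RNA differed between the lines, while the summed nuclear subunit RNA hardly did. The 37 mitochondrial genes held 2.93% of counts in ERBB2-high cells (interval 2.91 to 2.95%), 3.11% in RARRES2-high cells (3.10 to 3.13%) and 7.07% in FOLR1-high cells (7.05 to 7.10%). FOLR1-high cells were thus 2.42-fold above ERBB2-high cells and 2.27-fold above RARRES2-high cells. The 68 nuclear subunits held 2.40% (2.38 to 2.42%), 2.41% (2.40 to 2.43%) and 2.47% (2.46 to 2.49%), with at most 1.03-fold between any 2 lines. Mitochondrial counts per nuclear subunit count were therefore 1.22, 1.29 and 2.86.

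The gap was also present barcode by barcode. The median mitochondrial share of a barcode was 2.82% in ERBB2-high cells (quartiles 2.26 and 3.49%), 3.02% in RARRES2-high cells (2.34 and 3.96%) and 7.12% in FOLR1-high cells (5.81 and 8.49%). The lower quartile of FOLR1-high cells was above the upper quartile of both other lines, although the full ranges overlapped. The median nuclear share was 2.34, 2.42 and 2.43%. A share above 20% mitochondrial counts, often taken as a sign of damaged cells, occurred in 0 of 648, 1 of 473 and 4 of 765 barcodes.

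**Figure D1:**
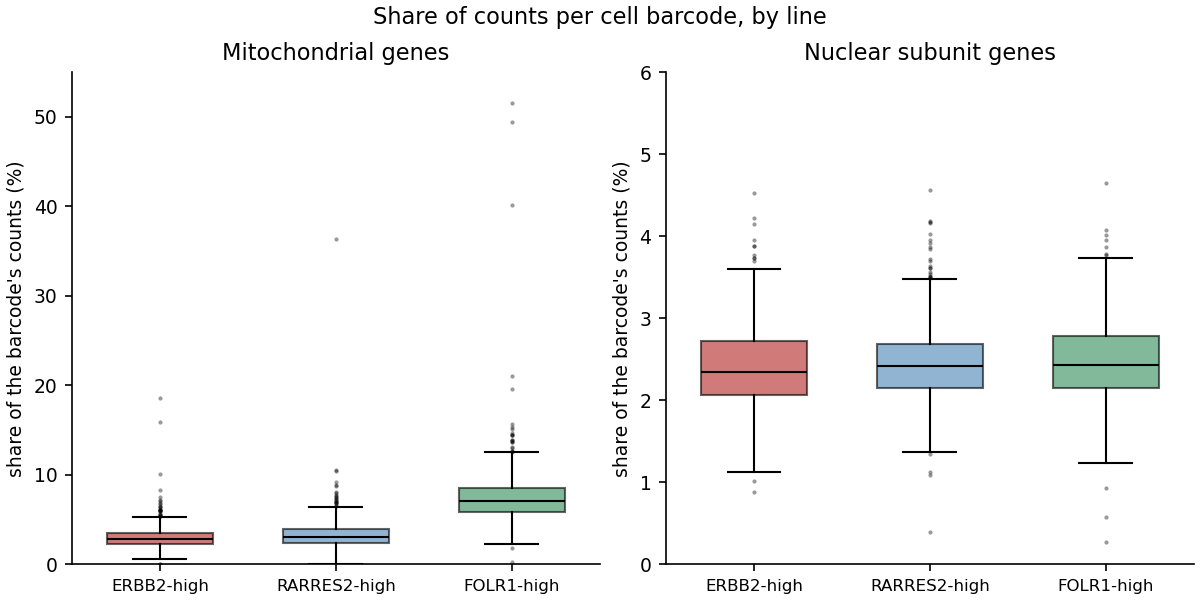
Share of each barcode's counts (%) from mitochondrial genes (left) and from nuclear subunit genes (right), for the ERBB2-high, RARRES2-high and FOLR1-high barcodes. Boxes give median and quartiles, whiskers reach to 1.5 times the box and points are single barcodes; the median mitochondrial share is 7.12% in FOLR1-high cells against 2.82 and 3.02%, and the nuclear medians lie between 2.34 and 2.43%.

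Depth moved with the mitochondrial share and was not the same in the 3 lines. Barcodes under 100 counts, all outside the lines, had 71.1% mitochondrial counts, and those from 100 to 1000 counts had 25.7%. Within the lines, barcodes of 1000 to 2000 counts had 3.94% in ERBB2-high, 4.16% in RARRES2-high and 11.6% in FOLR1-high cells. Barcodes of at least 10000 counts had 2.73, 2.84 and 6.76%. FOLR1-high cells had the highest share in each of the 4 depth ranges, the other 2 being 2000 to 5000 counts (3.05, 3.79 and 7.74%) and 5000 to 10000 counts (2.86, 3.12 and 6.79%).

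Across barcodes of 1 line thinned to 2000 counts, the mitochondrial share varied more than counting alone gives. Its SD was 1.34, 2.10 and 2.23 percentage points, where binomial counting error gives 0.380, 0.399 and 0.579. The nuclear share had an SD of 0.578, 0.509 and 0.525 points against 0.343, 0.344 and 0.349. The Pearson correlation of both shares was -0.13 over 606 ERBB2-high, -0.19 over 443 RARRES2-high and -0.09 over 733 FOLR1-high barcodes. Both shares come from the same barcode total, which builds in a negative relation. With the nuclear share taken of non-mitochondrial counts, the values were -0.08, -0.13 and 0.02, so the sign in FOLR1-high cells turned, and no relation is read from these weak values.

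Of the mitochondrial genes, 13 encode proteins, and 10 of them supplied nearly all mitochondrial counts. By counts over all barcodes, MT-CO3 (169504), MT-CYB (107969), MT-ND4 (99322) and MT-ND3 (60507) were highest. The highest nuclear members by counts were ATP5E (14747), COX4I1 (14315) and UQCRH (12568). Dividing by transcript length changed the order. Per kb, MT-CO3 and MT-ND3 were highest with 216204 and 174876 counts per kb, followed by MT-CYB with 94627 and MT-ND4 with 72077. The highest nuclear members per kb were COX8A (22103 counts per kb), UQCRH (20808) and COX4I1 (20219). MT-ND6, the 1 protein gene on the light strand, had 1091 and MT-ND4L 1081 counts per kb. MT-ATP8 had 13 counts in all and the rRNAs MT-RNR1 and MT-RNR2 9 and 34. MT-ATP8 overlaps MT-ATP6 and MT-ND4L overlaps MT-ND4 in the genome, and each pair is known to share 1 mRNA, so how reads were divided within a pair is uncertain. Nuclear copies of mitochondrial genes added little, since 392 such pseudogene entries held 213 counts together, against 619598 in the mitochondrial members.

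Complex I subunits from the mitochondrial genome were higher in FOLR1-high cells. MT-ND1 had 2675 CPM in ERBB2-high, 2583 in RARRES2-high and 5567 in FOLR1-high cells. MT-ND2 had 2780, 3064 and 6427 CPM, MT-ND3 3275, 2896 and 6670, and MT-ND5 904, 1058 and 1610. MT-ND4 had 4597, 6624 and 10067 CPM, a wider ratio between ERBB2-high and RARRES2-high cells than in these 4 genes. MT-ND4L was low in each line with 18.3, 17.5 and 29.5 CPM. MT-ND6 had 48.5, 17.5 and 58.7 CPM, so that RARRES2-high cells were lowest and the interval of the ratio between the other 2 lines, 0.99 to 1.48, included equality.

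For complex III, MT-CYB (cytochrome b) had 4661, 5517 and 12581 CPM in ERBB2-high, RARRES2-high and FOLR1-high cells. In complex IV, MT-CO1, which holds the oxygen-binding site, had 871, 834 and 2582 CPM and MT-CO3 7663, 6667 and 21389 CPM. MT-CO2, which accepts electrons from cytochrome c, had 496, 515 and 853 CPM. For complex V, MT-ATP6, part of the proton channel, had 1288, 1350 and 2884 CPM and MT-ATP8 2, 1 and 9 counts. All 12 protein genes with at least 50 counts in a pair had their highest level in FOLR1-high cells.

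Against ERBB2-high cells 11 of these 12 were at least 1.5-fold higher in FOLR1-high cells, where 15% of all 8829 gene entries were. Against RARRES2-high cells it was 12 of 12, where 21% of all 8708 entries were. Folds ran from 1.61 (MT-ND4L, interval 1.18 to 2.21) to 2.96 (MT-CO1, 2.85 to 3.09) in the first pair among those past the limit. They ran from 1.52 (MT-ND4, 1.5 to 1.54) to 3.36 (MT-ND6, 2.53 to 4.54) in the second. Between ERBB2-high and RARRES2-high cells only MT-ND6 passed, 2.78-fold higher in ERBB2-high cells (2.05 to 3.8), where 34.6% of 8732 entries did in that direction.

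**Figure D2:**
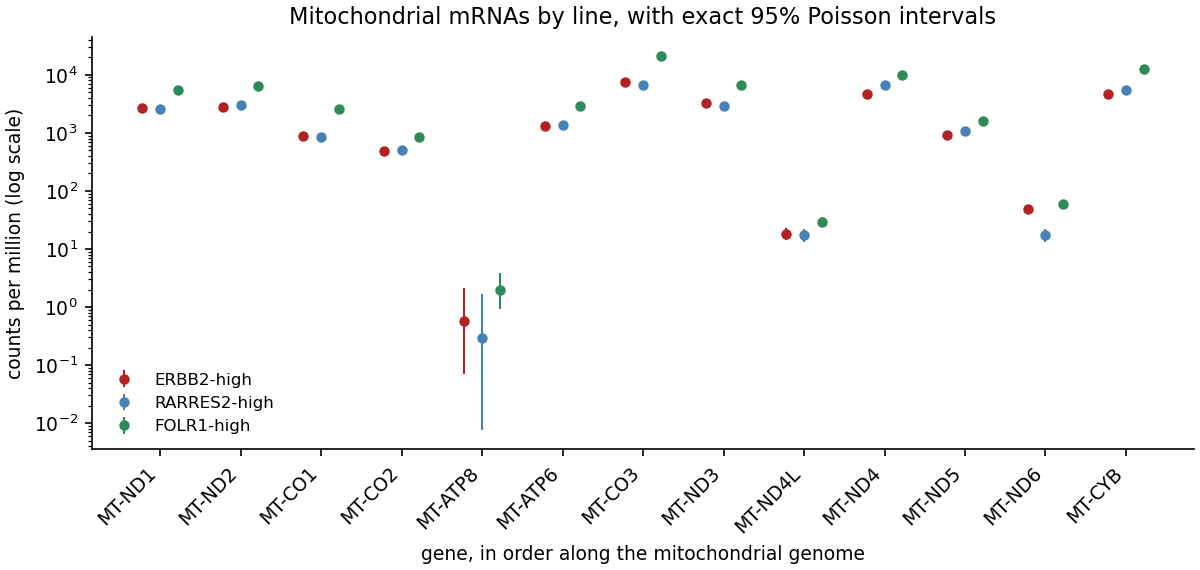
Level of the 13 mitochondrial protein genes in CPM (log axis) in each line, in genome order, with exact 95% Poisson intervals. FOLR1-high points are the highest for each gene, MT-CO3 reaches 21389 CPM there, and the ERBB2-high and RARRES2-high points lie close together except at MT-ND6 (48.5 and 17.5 CPM), MT-ND4 (4597 and 6624 CPM) and MT-ATP8 (2 and 1 counts).

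The make-up of mitochondrial RNA also differed. MT-CO3 made up 26.2% of mitochondrial counts in ERBB2-high (interval 25.9 to 26.4%), 21.4% in RARRES2-high (21.2 to 21.7%) and 30.2% in FOLR1-high cells (30.1 to 30.4%). MT-ND4 made up 15.7% (15.5 to 15.9%), 21.3% (21 to 21.5%) and 14.2% (14.1 to 14.4%). RARRES2-high cells were thus lowest for the first gene and highest for the second, and no interval met another. MT-ND6 made up 0.166, 0.056 and 0.083%.

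A smaller share of the nuclear member subunits than of all gene entries differed between lines. At least 50 counts in a pair were reached by 61, 61 and 60 of the 68 nuclear subunits, the others being UQCRHL, NDUFA4L2, COX7A1, COX4I2, COX6A2, COX8C and ATP5L2, and COX7B2 in the last pair. Between ERBB2-high and RARRES2-high cells 20 of 61 differed at least 1.5-fold, where 55.9% of all entries did. Of these 12 were higher in the first (34.6% of all entries) and 8 in the second (21.3%). Between ERBB2-high and FOLR1-high cells it was 15 of 61, against 58.2% of all entries either way. Here 8 were higher in the first (43.2% of all entries) and 7 in the second (15%). Between RARRES2-high and FOLR1-high cells it was 13 of 60, against 55.4%, with 4 higher in the first (34.5%) and 9 in the second (21%). With a minimum of 200 counts, the members called were 20, 15 and 13 against 51, 55.1 and 52.4% of all entries.

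The direction of these differences depended on the scale. All entries had a median log2 ratio of 0.21, 0.45 and 0.20 in the 3 pairs, toward the first line named, and the nuclear subunits 0.11, -0.02 and -0.06. With ratios divided by the all-gene median, the splits became 6 and 15, 2 and 23, and 2 and 16, where 54.1, 51.3 and 55% of all entries passed the limit either way. With mitochondrial counts left out of the total, they were 12 and 9, 6 and 10, and 2 and 12, against 55.9, 56.8 and 54.8% of all entries. The CPM directions given below for single genes are on the plain scale.

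Of the 60 subunits with enough counts in each pair, 33 stayed within 1.5-fold over the 3 lines, where 21.1% of 7839 entries with the same counts did, and 11 differed at least 2-fold, where 53.3% of these entries did. The median of highest over lowest was 1.49-fold in the subunits and 2.08-fold over all entries. Of 11 further subunits in entries that join several genes, which are no members, 2 stayed within 1.5-fold and 6 differed at least 2-fold, near the shares of all entries. The steadiest members were ATP5L (ATP synthase subunit g), at 942, 934 and 982 CPM, and COX7B, at 400, 435 and 429 CPM. No line was always at the top, with 22 subunits highest in ERBB2-high, 18 in RARRES2-high and 20 in FOLR1-high cells.

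**Figure D3:**
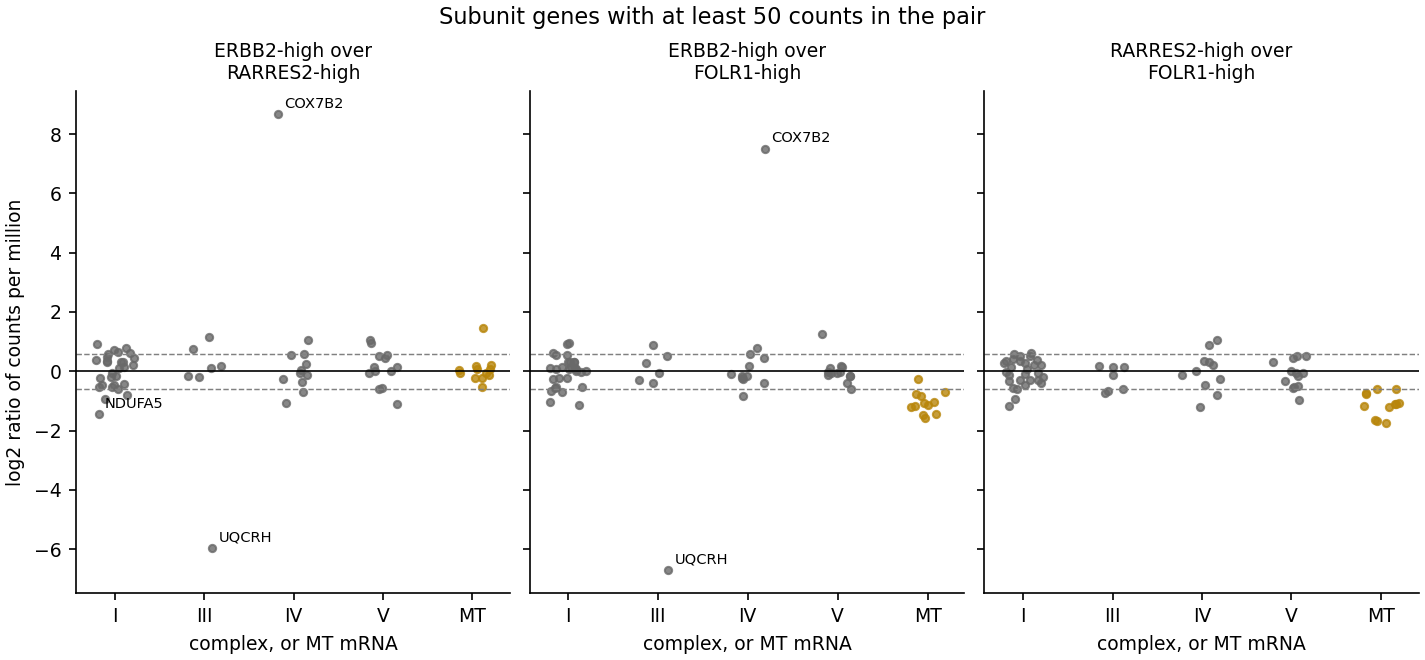
Log2 ratio of CPM for each subunit gene with at least 50 counts in the pair, by complex (I, III, IV, V; grey) and for mitochondrial mRNAs (MT; ochre), in 3 pairs of lines. Dashed lines mark 1.5-fold, and COX7B2 against FOLR1-high cells is drawn at the ratio that 3 counts in FOLR1-high cells would give. UQCRH and COX7B2 lie far from all others, and the mitochondrial mRNAs are below 0 in both comparisons with FOLR1-high cells.

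The nuclear members of complex I, which takes electrons from NADH, summed to 8221 CPM in ERBB2-high, 7700 in RARRES2-high and 7937 in FOLR1-high cells. The sums by complex, here and below, hold members only. They leave out subunits in joined entries, in complex I among others NDUFC2 (629, 1537 and 266 CPM) and NDUFA11 (1084, 321 and 467 CPM). The order of the lines in a sum can change when these are included. Among the members, NDUFS5, NDUFS6 and NDUFB10 had the most counts. NDUFS5 had 883, 534 and 1023 CPM, so RARRES2-high cells were lowest, 1.92-fold below FOLR1-high cells (interval 1.81 to 2.02). NDUFS6 had 559, 647 and 452 CPM and NDUFB10 616, 532 and 500 CPM, both within 1.5-fold. NDUFA5, an accessory subunit, was lowest in ERBB2-high cells with 53.7 CPM against 146 and 120 CPM, 2.72-fold (2.29 to 3.24) and 2.23-fold (1.88 to 2.64). NDUFV3 was low in the same cells, with 54.3 against 105 and 113 CPM. NDUFS7, which carries an iron-sulfur cluster, had 151, 96.2 and 217 CPM. NDUFS1, the largest subunit, had 85.1, 56.5 and 44.3 CPM, and NDUFA8 252, 202 and 134 CPM, both highest in ERBB2-high cells. NDUFS3, a core subunit, had 140, 211 and 138 CPM and was highest in RARRES2-high cells.

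Complex III hands electrons from ubiquinol to cytochrome c, and it had the widest gap of any complex. Its nuclear subunits summed to 2323 CPM in ERBB2-high, 2839 in RARRES2-high and 3782 in FOLR1-high cells. Without UQCRH the sums were 2307, 1845 and 2111 CPM, and ERBB2-high cells then had the highest. UQCRH (ENSG00000173660, chr1:46303631-46316776, plus strand) encodes the hinge protein that supports the docking of cytochrome c. It had 16 CPM in ERBB2-high cells (12 to 20.8), 993 in RARRES2-high (960 to 1027) and 1671 in FOLR1-high cells (1634 to 1709). ERBB2-high cells were therefore 62.2-fold below RARRES2-high cells (47.6 to 82.7) and 105-fold below FOLR1-high cells (80.3 to 139).

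Nearly all ERBB2-high barcodes had no UQCRH count. A count was seen in 12 of 648 of them, or 1.85% (0.960 to 3.21%), against 457 of 473 RARRES2-high barcodes (96.6%) and 754 of 765 FOLR1-high barcodes (98.6%). The median count per barcode was 0, 6 and 9. Of the 55 counts, 49 lay in 7 barcodes with at least 3 each, and the doublet caller Scrublet marked 5 of these 7 as doublets, and 5 of the 636 without UQCRH. The 7, picked here by their UQCRH counts, were deeper (median 7682 against 4955 counts). Leaving out the called barcodes gave 5.96 CPM, and asking for 90% of marker counts gave 9.02 CPM. Both settings were chosen after the data were seen. Free RNA in droplets can give counts in cells that do not express a gene, and the part of free RNA, of doublets and of depth in these counts was not tested.

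Copies of UQCRH were not high in its place. Its near-identical paralog UQCRHL had 0.29, 1.18 and 1.77 CPM, and 4 UQCRH pseudogene entries had 0 counts. Counting may divide reads between such copies, and in ERBB2-high cells the copies held 1 count together. Among 180 entries with at least 500 CPM in both other lines, UQCRH and MDK, a growth factor gene, were the 2 that were at least 10-fold lower in ERBB2-high cells (1.11%).

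The genes beside UQCRH on chromosome 1 were measured in the same way. LRRC41, part of a ubiquitin ligase, starts 0.023 kb away and had 9.30, 30.5 and 40.5 CPM, 3.28-fold (2.19 to 5.04) and 4.36-fold (2.98 to 6.56) lower in ERBB2-high cells. On the same side, RAD54L had 3.20, 5.92 and 3.54 CPM and POMGNT1 17.1, 12.7 and 12 CPM. On the other side, NSUN4 had 11.0, 3.55 and 19.5 CPM, FAAH 2.03, 0.89 and 4.43 CPM and ATPAF1, an assembly factor of ATP synthase, 18.6, 15.1 and 16.4 CPM. None of these 5 was lowest in ERBB2-high cells by an interval that left out equality against both other lines. LURAP1 (start at -100 kb) was highest in ERBB2-high cells with 10.5 CPM, against 2.66 in RARRES2-high cells, a 3.93-fold difference (1.86 to 9.27), and 0 counts in FOLR1-high cells, an at least 15.7-fold difference. PIK3R3, joined with another gene in 1 entry 127 kb away on the side of LURAP1, was lowest in ERBB2-high cells with 6.10, 15.4 and 33.0 CPM, and TSPAN1 beside it is one of the markers of the line.

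Among the other complex III subunits, UQCRFS1, the Rieske iron-sulfur protein, had 297, 133 and 210 CPM, 2.24-fold higher in ERBB2-high than in RARRES2-high cells (2.0 to 2.51). UQCRQ had 757, 454 and 407 CPM, UQCRB 497, 439 and 660 CPM and UQCR10 478, 536 and 581 CPM. The core proteins UQCRC1 (161, 149 and 132 CPM) and UQCRC2 (116, 134 and 120 CPM) stayed within 1.5-fold.

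Complex IV, cytochrome c oxidase, reduces oxygen to water. Its nuclear subunits summed to 7352 CPM in ERBB2-high, 7539 in RARRES2-high and 7169 in FOLR1-high cells, the members differing in opposite directions. COX4I1, with the most counts, had 1124, 1163 and 1006 CPM. COX8A had 599, 1247 and 674 CPM and was highest in RARRES2-high cells, 2.08-fold above ERBB2-high cells (1.97 to 2.19). COX6C was lowest in FOLR1-high cells, with 887, 1073 and 518 CPM. COX7C was lowest in RARRES2-high cells, with 891, 434 and 1002 CPM, a 2.31-fold gap to FOLR1-high cells (2.18 to 2.45). COX6B1 had 527, 363 and 632 CPM and NDUFA4 524, 673 and 931 CPM.

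Several complex IV subunits have a paralog known mainly from 1 tissue. COX7B2, known from testis and some tumours, was counted almost only in ERBB2-high cells (ENSG00000170516, chr4:46734827-46909231, minus strand). Its level was 121 CPM there (110 to 134, 418 counts), 1 count in RARRES2-high and 0 in FOLR1-high cells. It was thus 410-fold above RARRES2-high cells, with an interval from 73.2 to 16240 because of the single count. It was at least 183-fold higher than in FOLR1-high cells, taking 3 counts as the limit that a count of 0 allows. A count was seen in 273 of 648 ERBB2-high barcodes, or 42.1% (38.3 to 46.0%), against 1 of 473 and 0 of 765, the last allowing up to 0.392% of barcodes with a count (3 of 765, a limit on detection at this depth and not on cells that express the gene). Its widely used paralog COX7B had 400 CPM in the same cells. The nearest entries with at least 30 counts, COMMD8 554 kb away (74.1, 28.4 and 49.8 CPM) and ATP10D 576 kb away (27.0, 4.44 and 4.65 CPM), were also highest in ERBB2-high cells, by less.

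The other tissue-limited paralogs were at or near 0. COX4I2 of lung, COX6A2 of muscle and COX8C of testis had 0 counts in each line. COX7A1 of muscle had 4, 3 and 0 counts, and NDUFA4L2, known from hypoxia, had 4, 16 and 1. The 3 genes for the same membrane ring subunit of ATP synthase were all used. ATP5G3 had 836, 756 and 753 CPM and ATP5G2 470, 320 and 478 CPM. ATP5G1 had 254, 549 and 383 CPM and was highest in RARRES2-high cells, 2.16-fold above ERBB2-high cells (1.99 to 2.34).

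The nuclear members of complex V summed to 6104, 6060 and 5860 CPM. ATP5J2 (127, 434 and 177 CPM) and ATP5O (327, 296 and 314 CPM), in joined entries, are not in this sum. The small gaps between the lines depend on that. ATP5E, the epsilon subunit, had 932, 1397 and 1018 CPM. ATP5J, the coupling factor in the outer stalk, had 787, 402 and 326 CPM and was 2.41-fold higher in ERBB2-high than in FOLR1-high cells (2.26 to 2.57). ATP5C1 had 353, 169 and 328 CPM, lowest in RARRES2-high cells. The beta subunit gene ATP5B (443, 444 and 493 CPM), which makes ATP, and ATP5F1 (157, 165 and 174 CPM) were nearly level.

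ATP5S (ENSG00000125375, chr14:50312329-50335558, plus strand) had 0 counts in RARRES2-high cells. It had 50 counts in ERBB2-high (14.5 CPM, 10.8 to 19.1) and 63 in FOLR1-high cells (14 CPM, 10.7 to 17.9), at least 16.4-fold and 15.7-fold higher. Of 5749 entries with at least 50 counts in both other lines, a set with no upper limit in which ATP5S (50 and 63) is near the minimum, 11 were at 0 in RARRES2-high cells (0.191%). MAP4K5, SAV1 and NIN, which lie beyond ATP5S on chromosome 14 at 220, 356 and 519 kb, were among the same 11. Farther on, PYGL (632 kb) had 3 counts against 154 and 562, and TRIM9 (784 kb) had 0, as in ERBB2-high cells. On the other side of ATP5S, SOS2 (start at -80.8 kb) had 21 counts in RARRES2-high cells (6.22 CPM against 15.4 and 12.6). Beyond TRIM9, TMX1 at 928 kb had 36.4 CPM against 52.0 and 53.4. From MAP4K5 to TRIM9, the entries with at least 30 counts in the library thus had 0 to 3 counts in RARRES2-high cells.

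**Figure D4:**
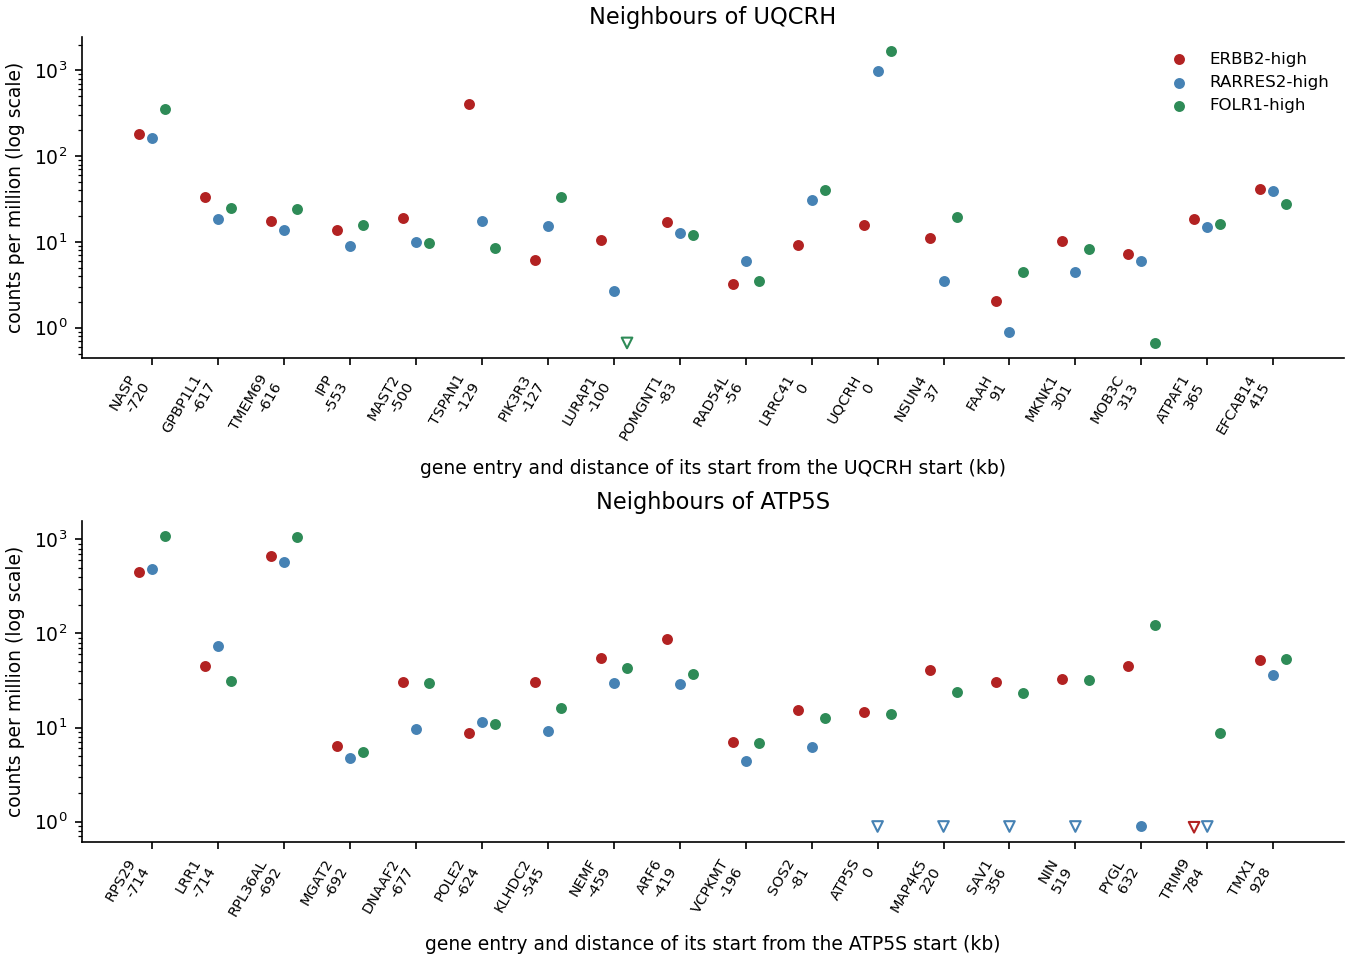
Level in CPM (log axis) of the gene entries with at least 30 counts around UQCRH (top) and ATP5S (bottom, 1 entry not drawn), in order along the chromosome, with the distance of each start in kb. Open triangles stand for 0 counts, drawn at the level of 3 counts; UQCRH and LRRC41 are low in ERBB2-high cells, and ATP5S, MAP4K5, SAV1, NIN and TRIM9 have 0 counts in RARRES2-high cells.

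Long reads also gave the share of each transcript of a gene. Among 47 nuclear subunits with at least 2 listed transcripts and 100 counts in both lines, a share differed by at least 10 percentage points in 7 between ERBB2-high and RARRES2-high cells, where 11% of all entries tested did. The number was 5 of 47 between ERBB2-high and FOLR1-high cells (10.5% of all) and 4 of 47 between RARRES2-high and FOLR1-high cells (13.1% of all). The subunits were therefore near the background in this count. The 8 genes with the largest differences were ATP5C1, NDUFS5, ATP5D, NDUFV3, ATP5G1, NDUFC1, NDUFA5 and ATP5A1.

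ATP5C1 had the largest difference of the nuclear subunits. The form without exon 9, whose junction is printed above, made up 60.2% of its 1215 counts in ERBB2-high cells (57.3 to 62.9%). It made up 22.7% of 571 counts in RARRES2-high cells (19.4 to 26.4%) and 9.04% of 1480 counts in FOLR1-high cells (7.64 to 10.6%). The intervals did not meet, and the order of the lines was not that of the gene's level. At least 81.5% of each form's counts in each line were whole, so few reads were divided between both forms.

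NDUFS5 (chr1:39026318-39034636, plus strand) has 2 forms whose first exons end 4 bases apart. The form with the longer exon made up 28.1% of 3041 counts in ERBB2-high cells (26.6 to 29.8%), 40.5% of 1804 in RARRES2-high cells (38.2 to 42.8%) and 2.02% of 4621 in FOLR1-high cells (1.63 to 2.46%). Ends this close are hard to tell apart in nanopore reads, and the part of alignment error was not tested. NDUFV3 with the long exon 3 made up 53.7% of 187 counts in ERBB2-high cells (46.1 to 60.8%), 32.8% of 354 (27.9 to 37.9%) and 25.3% of 509 in the others (21.6 to 29.4%). ATP5D, the delta subunit, kept the intron before its last exon in 20.4% of 201 counts (15.1 to 26.6%), 50.6% of 180 (43.0 to 58.1%) and 15.7% of 349 (12.1 to 20.01%). RARRES2-high cells stood apart there, while the other 2 lines overlapped.

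ATP5G1 used a form with a later start and a longer first exon in 29, 18.3 and 12.5% of counts, highest in ERBB2-high cells, where the gene was lowest. NDUFA5 used its main form in 80.1, 93.8 and 90.9% of counts. The 2 last genes rest on divided reads: of the NDUFC1 form with 29.1, 39.3 and 24.3% of counts, at most 6.82% of counts were whole, and ATP5A1 differed by at most 9.42 points, with at most 16.1% of its main form's counts whole.

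**Figure D5:**
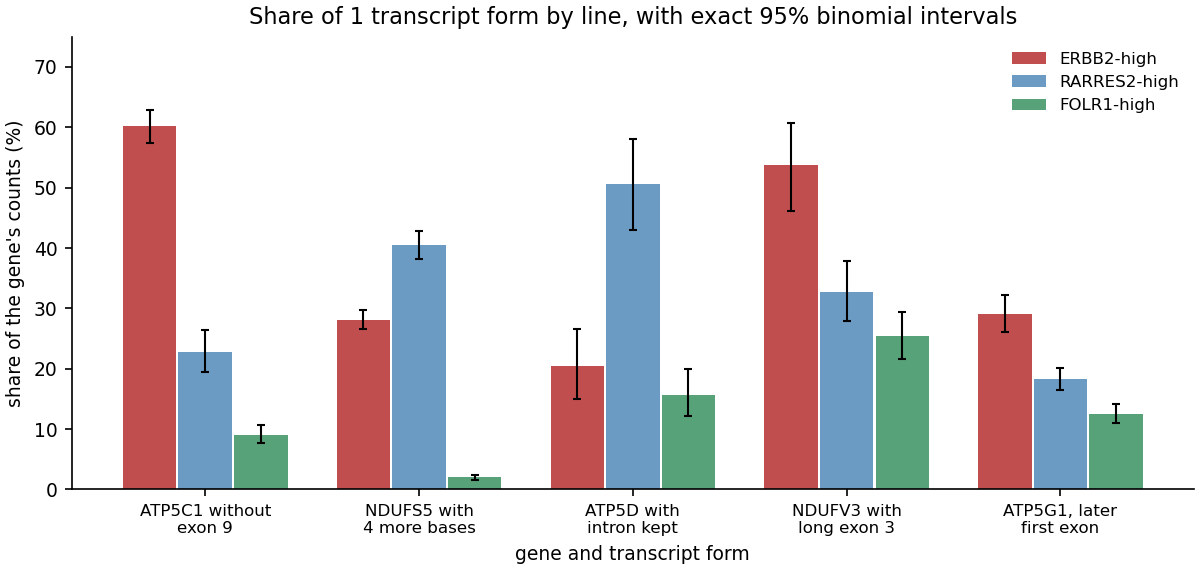
Share (%) of 1 transcript form of 5 subunit genes in each line, as bars with exact 95% binomial intervals. The ATP5C1 form without exon 9 is at 60.2% in ERBB2-high and 9.04% in FOLR1-high cells, and the NDUFS5 form with the longer first exon is at 2.02% in FOLR1-high cells.

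Genes that work with the complexes were taken from lists. Of complex II and cytochrome c, 5 of 6 genes were measured. The SDHA, SDHB and SDHC genes of complex II stayed within 1.5-fold. CYCS, cytochrome c, had 115, 330 and 216 CPM and CYC1, a nuclear-encoded cytochrome of complex III, 98.2, 180 and 153 CPM. Both were lowest in ERBB2-high cells. CYC1 is no member by its symbol, so the complex III sums above leave it out. Of 46 assembly factors, 39 were compared in each pair. Between ERBB2-high and RARRES2-high cells 6 were higher in the first and 9 in the second, between ERBB2-high and FOLR1-high cells 5 and 9, and between RARRES2-high and FOLR1-high cells 7 and 5. These were 38.5, 35.9 and 30.8% of the factors compared, against 55.9, 58.2 and 55.4% of all entries. Of 38 symbols for expression of mitochondrial DNA, 28, 31 and 29 were compared. The numbers higher in the first and second line were 8 and 7, 11 and 3, and 7 and 5, or 53.6, 45.2 and 41.4% of those compared, against the same shares of all entries, so the first pair was close to the background. TFAM, which packs mitochondrial DNA and starts its transcription, had 119, 94.4 and 63.3 CPM, and the mitochondrial RNA polymerase POLRMT 37.2, 6.51 and 15.7 CPM, both highest in ERBB2-high cells. LRPPRC, which stabilises mitochondrial mRNAs, had 95.3, 84.4 and 121 CPM, and ELAC2, which cuts mitochondrial tRNAs out of their precursors, 14.5, 20.4 and 33.9 CPM. Both were highest in FOLR1-high cells, LRPPRC by less than 1.5-fold. Other genes of the list for handling mitochondrial RNA were not highest there, such as TRMT10C (118, 44.4 and 96.8 CPM), HSD17B10 (116, 190 and 88.4 CPM) and GRSF1 (110, 47.1 and 50.7 CPM). The inhibitor of ATP synthase, ATPIF1, had 874, 534 and 1339 CPM.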

How the data were processed

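The deposited values are estimated counts, not normalised, of each transcript in each barcode, which the authors made from 1 PromethION library of the pooled lines. GRCh38 and Cell Ranger 6.0.1 are named in the submitters' processing notes, without their role. How reads were aligned, cells called, and strand and molecular identifiers handled is not stated in the labels. Of 8294569 matrix entries 39.8% were whole within 1e-06, and 100% of sums per gene entry and barcode were. These sums were rounded, giving 13052893 counts over 2462 barcodes, 1 to 25670 each. Entries that join several genes were left out of the members. PCR copies may be counted, so exact Poisson, Clopper-Pearson and conditional binomial intervals (scipy 1.17.1) cover counting error only. Exons and coding parts come from GENCODE release 29, matched by transcript identifier. Barcodes below the 75% marker rule were set aside, and mixed barcodes can remain above it. Asking for 90% left 528 ERBB2-high, 285 RARRES2-high and 707 FOLR1-high barcodes. Scrublet (scanpy 1.11.5, expected rate 0.02, 76 barcodes or 3.09% called) was an alternative. Of its calls, 10 lay in ERBB2-high, 11 in RARRES2-high and 9 in FOLR1-high cells. The code that calls folds was checked on simulated counts. Genes were named by a fixed rule: all mitochondrial protein and rRNA genes, up to 5 nuclear members with the largest ratio each way in each pair, the 8 largest transcript share differences, paralog pairs and the 3 subunits with the most counts in each complex. Other genes were named for their role or place after their values were seen. One gene that the rule names and 1 neighbouring gene are not reported here. Members, lists and lines were chosen with earlier results of these data known.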

Additional observations from a re-analysis of the deposited data

How the results depend on the processing

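No paired analysis was possible because each platform has 1 library. The order of the lines in mitochondrial share was the same under each alternative tried. Shares that left the narrow counting interval were, for ERBB2-high cells, 2.91% from barcodes of at least 2000 counts, 2.82% as the median over barcodes and 2.98% after thinning. For RARRES2-high cells they were 3.14% with 90% of marker counts, 3.09% without barcodes over 20% mitochondrial, 3.02% as the median and 3.30% after thinning. For FOLR1-high cells they were 7.02% (at least 2000 counts), 7.12% (without Scrublet calls), 7.03% (without barcodes over 20%), 7.12% (median) and 7.24% (thinned). The nuclear share, in the order ERBB2-high, RARRES2-high and FOLR1-high, was 2.47, 2.49 and 2.66% of non-mitochondrial counts. With 2 alternatives added after seeing the data, joined entries included gave 2.92, 2.94 and 2.94%, and leaving out UQCRH gave 2.40, 2.31 and 2.31%, after which ERBB2-high cells were highest. It was 2.34 and 2.43% as the median in ERBB2-high and FOLR1-high cells, 2.38% in RARRES2-high cells with 90% of marker counts and 2.50% in FOLR1-high cells after thinning. A limit lower than 1.5-fold, as planned, called 37, 25 and 31 nuclear members in the 3 pairs (73.9, 77.3 and 74% of all entries), and 2-fold called 8, 5 and 3 (34.2, 35.4 and 34.9%). Dividing by the all-gene median called 25 between ERBB2-high and FOLR1-high cells. Transcript differences of 5 points were found in 12, 8 and 11 of 47 members (30.4, 29.4 and 32.3% of all entries tested) and of 20 points in 3, 3 and 2 (2.37, 1.86 and 3.0%). Between ERBB2-high and RARRES2-high cells the number of members past 10 points was 4 of 46 with 90% of marker counts (11.2% of all) and 4 of 43 with whole counts only (11.7%). The ATP5C1 shares stayed within their intervals under each alternative tried. Depth limits the low members: 3 counts are 0.87, 0.89 and 0.66 CPM in the lines.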

Other observations

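A total of 12 further subunit genes lie in entries that join several overlapping genes and were therefore no members. Their own transcripts, taken by transcript name, held at least 94.9% of each entry's counts. NDUFC2, a membrane subunit of complex I, had 629 CPM in ERBB2-high (interval 603 to 656), 1537 in RARRES2-high (1496 to 1580) and 266 in FOLR1-high cells (251 to 281), the widest range of the 12 apart from COX6B2. NDUFA11 had the opposite order of the first 2 lines, with 1084 (1049 to 1119), 321 (302 to 341) and 467 CPM (447 to 487). NDUFA9 had 37.5, 119 and 72.4 CPM, NDUFB8 202, 394 and 516 CPM and NDUFA13 1016, 518 and 1163 CPM. ATP5J2, subunit f of ATP synthase, had 127, 434 and 177 CPM. COX6A1 (616, 621 and 631 CPM) and ATP5O (327, 296 and 314 CPM) were nearly level. COX6B2, the testis paralog of COX6B1, had 1 count in all. NDUFA7 had 154, 169 and 264 CPM, NDUFV2 373, 426 and 255 CPM and UQCR11 549, 323 and 476 CPM. Of the 11 with at least 50 counts in each pair, 9 thus differed at least 1.5-fold between 2 lines. The other 2 stayed within 1.5-fold, where 21.1% of 7839 entries did, so these subunits were near the background.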
